A study of Homo sapiens with 18 samples.

Results

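The loci of CCND1, CDK6 and MYC, 3 genes that drive entry into the cell cycle, were examined for ChIP-seq peaks of EWSR1-FLI1, RING1B and H2Aub1 in A673, an established Ewing sarcoma cell line. Every peak of 5 lists was taken that touched the hg19 window of CCND1 (chromosome 11 from 69455873 to 69469242) or CDK6 (chromosome 7 from 92234235 to 92465941) with 200 kb on each side, or of MYC (chromosome 8 from 128748315 to 128753680) with 1 Mb on each side. The windows held 82 of the 45354 peaks of all lists. Of these, 30 lay in the CCND1 window, 19 in the CDK6 window and 33 in the MYC window. The lists came from EWSR1-FLI1 (1 sample), RING1B (2 replicates) and H2Aub1 (2 replicates), all from A673 cells with no treatment named, and the labels do not say whether replicates were separate cultures. The other 13 of the 18 samples of the series, which include inputs and cells with an shRNA against RING1B, were not analysed here. All results rest on 1 cell line, whose identity is taken from the labels, since peak lists hold no expression.

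Cyclin D1, the product of CCND1, binds and activates the kinases CDK4 and CDK6, which phosphorylate the retinoblastoma protein and so release E2F factors that start DNA replication. MYC is a transcription factor that promotes growth and division, and CCND1 and CDK6 are among the genes whose activity it can influence. EWSR1-FLI1 is the fusion oncoprotein of Ewing sarcoma and binds DNA through the ETS domain of FLI1, which recognises the core letters GGAA and, in tumours, also repeats of GGAA far from genes. RING1B is the ubiquitin ligase of Polycomb repressive complex 1, which places the mark H2Aub1 on histone H2A and is best known at silent, CpG-rich promoters.

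Distances below run from the centre of a peak to the start of the gene, along its direction of transcription, and a minus sign means upstream. Each peak carries a score of the authors, whose scale is not given, so scores are ranked within their own list only, and a percentile is the share of that list with a lower score. Depth is unknown, since the lists give no read counts, so list lengths are not compared. A RING1B or H2Aub1 region is called shared by the replicates when a peak of each overlaps the other by at least 1 bp. The lists hold no mark of active enhancers, so groups of neighbouring peaks are described as clusters of binding sites.

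The 3 loci differed in which protein lay where. At CCND1 the strongest binding of EWSR1-FLI1 and RING1B lay together upstream of the gene, while the strongest H2Aub1 lay downstream. At CDK6 RING1B was strongest just upstream of the gene's start, with no EWSR1-FLI1 peak there. At MYC the gene itself carried H2Aub1, and EWSR1-FLI1 with RING1B lay 75.8 to 827 kb away. No EWSR1-FLI1 peak overlapped any of the 3 gene bodies.

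Counted over the 3 windows, 5 of 8 EWSR1-FLI1 peaks overlapped RING1B of both replicates (62.5%, Wilson 95% interval 30.6 to 86.3%), against 41.8% of the 2145 peaks of the whole list. Another 1 overlapped RING1B of replicate 2 only, and 2 overlapped none, against 32.4% of the list with none. Those 2, at CDK6 and at 59.8 kb from MYC, had the lowest scores of the 8. The interval spans the share of the whole list, and it treats the peaks as separate draws although peaks of a window are not replicates. These counts therefore do not set the loci apart from the list. Intervals cover counting error only, and no test was made, since the genes were chosen with results of these data known.

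RING1B regions shared by the replicates carried EWSR1-FLI1 at 1 of 1 in the CCND1 window, 0 of 4 in the CDK6 window and 4 of 4 in the MYC window, against 56.2% of the 1587 such regions overall. The count of 0 at CDK6 allows a share of up to 75%, and the difference between the loci was not tested. The windows are also unlike, with 200 kb on each side of CDK6 and 1 Mb on each side of MYC. With 200 kb, MYC had 1 shared RING1B region. With 1 Mb, CDK6 had 8 shared RING1B regions, and the share of them with EWSR1-FLI1 was not counted. Counted the other way, from EWSR1-FLI1 peaks, 3 of 4 at CDK6 overlapped RING1B of both replicates with 1 Mb. Over the 3 windows as chosen, 5 of 9 shared RING1B regions carried EWSR1-FLI1 (55.6%, 26.7 to 81.1%).

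Overlap with H2Aub1 was counted in the same way. Of the 8 EWSR1-FLI1 peaks 0 overlapped H2Aub1 of either replicate, which allows a share of up to 37.5%, against 8.81% of the whole list for H2Aub1 of both replicates and 15.1% for either. Within 10 kb of an EWSR1-FLI1 peak H2Aub1 of either replicate was found at 1 of 8, against 29.4% of the list. Of the 9 RING1B regions 1 overlapped H2Aub1 shared by the replicates, the region at the start of CDK6, against 19.8% of all such regions, and 2 overlapped H2Aub1 of either replicate, against 27.7%. Conversely, of the 7 H2Aub1 regions shared by the replicates 1 held RING1B of both replicates, against 4.98%, and 3 held RING1B of either, against 9.94%. The 3 of 7 lay above the share of the list, but all of them except the region at CDK6 rested on RING1B of 1 replicate. The regions are few, and none of these differences was tested.

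CCND1 had 2 EWSR1-FLI1 peaks, both upstream and both high in their list. The nearer peak (chromosome 11 from 69436666 to 69437605) lay at -18.7 kb and scored 490.95, rank 122 of 2145 and percentile 94.3. The farther peak (69413897 to 69415085) lay at -41.4 kb and scored 295.06, rank 292 and percentile 86.4. Both scored above the other 6 EWSR1-FLI1 peaks of the 3 windows.

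RING1B was found in both replicates at the nearer of these CCND1 sites and in replicate 2 alone at the farther. The shared region (69435226 to 69437876, 2651 bp wide) scored 688.53 in replicate 1, rank 98 of 2573, and 697.62 in replicate 2, rank 68 of 3945. At the farther site RING1B replicate 2 scored 365.95, rank 192, and replicate 1 had no peak. RING1B at the farther site therefore rests on 1 replicate, despite its high rank there.

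RING1B replicate 2 also had 4 peaks close to CCND1, 1 upstream of it and 3 touching the gene, none of them seen in replicate 1. They lay at -4.67, -0.132, 2.75 and 12.4 kb and scored 77.5, 52.05, 60.35 and 53.43, where the lowest score of the list is 50 and the median 78.2. The second of them covered the start of CCND1. Sites were chained into a cluster when no more than 20 kb separated their edges, and these 4 peaks formed, with the shared region at -19.3 kb, a cluster of 5 sites spanning 33.7 kb. The site at -41.4 kb missed this cluster narrowly, as its gap was 20119 bp, and 1 of the 5 sites was found by RING1B in both replicates.

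H2Aub1 at CCND1 was concentrated on the downstream side, in 4 regions shared by the replicates. The strongest (69516403 to 69522571, 6169 bp) lay at 63.6 kb and scored 1358.01 in replicate 1, rank 116 of 26423, and 580.64 in replicate 2, rank 125 of 10268. A second (69630391 to 69637191, 6801 bp) lay at 178 kb with 1252.12 and 431.89, and another (69588140 to 69591637) at 134 kb with 594.56 and 204.25. The weakest, at 77.1 kb, scored 240.51 in replicate 1 and 53.44 in replicate 2.

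Of these 4 H2Aub1 regions, 1 held RING1B of either replicate, against 9.94% of all shared H2Aub1 regions. The region at 63.6 kb held a RING1B peak of replicate 1 that scored 57.06, rank 2187 of 2573, and the other 3 held none in either replicate. In RefSeq the protein-coding genes that follow CCND1 on this side are LTO1, FGF19, FGF4 and FGF3, of which the FGF genes encode fibroblast growth factors, but their hg19 positions were not used here. Within CCND1 the mark was marginal, with 1 peak of replicate 1 at 1.87 kb scoring 50.55 and none of replicate 2, and a further peak of replicate 1 upstream at -3.59 kb scored 176.86. These peaks shared 472 and 555 bp with the RING1B peaks of replicate 2 at 2.75 and -4.67 kb. The remaining H2Aub1 peaks of the window were each seen in 1 replicate, with 7 of replicate 1 between 45.8 and 185 kb that scored 50.42 to 190.12, and 1 of replicate 2 at 151 kb that scored 64.8.

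**Figure D1:**
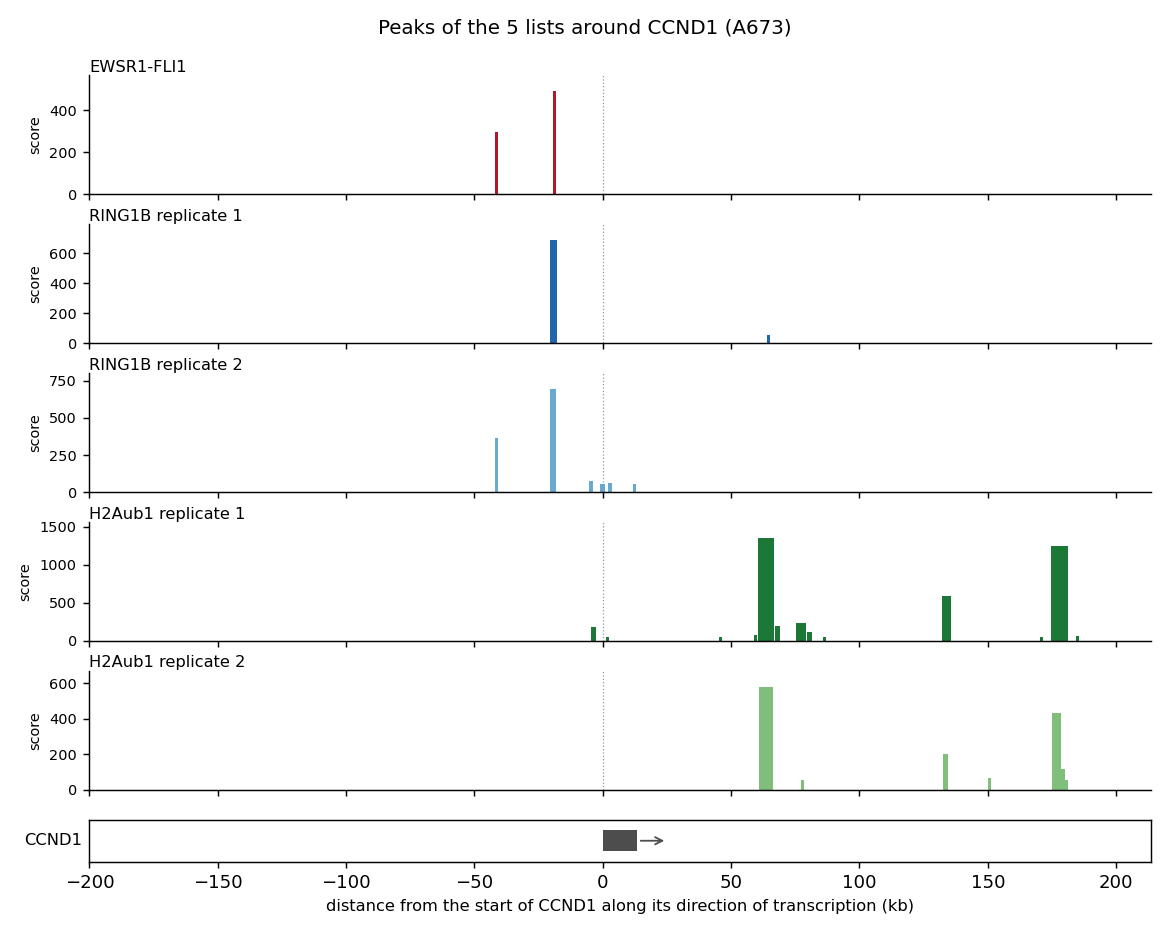
Peaks of each list around CCND1, plotted by distance from the gene's start in kb, with bar height giving the authors' score (linear, own scale per list) and the grey bar the gene. Bars are drawn at the peak's width or at a minimum that keeps narrow peaks visible. EWSR1-FLI1 and the highest RING1B peaks stand upstream, and the highest H2Aub1 peaks stand downstream from 63.6 kb on.

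CDK6 had its highest RING1B score next to its start and a single, weak EWSR1-FLI1 peak. The only EWSR1-FLI1 peak of its window (chromosome 7 from 92205052 to 92206041) lay beyond the end of the gene, 28.2 kb from it and 260 kb from the gene's start. It scored 64.34, rank 1622 of 2145 and percentile 24.4, and overlapped no RING1B peak of either replicate.

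RING1B had 4 regions shared by the replicates in the CDK6 window. The strongest (92466291 to 92470023, 3733 bp) began 350 bp upstream of the gene and scored 1540.02 in replicate 1, rank 19 of 2573, and 940.18 in replicate 2, rank 36 of 3945. It was the highest RING1B score in the 3 windows in both replicates. The next (92477949 to 92481172) lay at -13.6 kb with 227.01 and 241.89.

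The other CDK6 regions lay inside the gene and past its end, and their replicates ranked them differently. The region within the gene, at 203 kb, scored 74.3 in replicate 1 (percentile 37.5) and 254.91 in replicate 2 (percentile 91.3). The region past the end of the gene, at 286 kb, scored 50.65 (percentile 1.48) and 117.26 (percentile 72.8). Both were far weaker in rank in replicate 1 than in replicate 2, unlike the region at the start of the gene.

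The RING1B sites upstream of CDK6 formed a compact cluster. It held 3 sites over 19.0 kb, from -19.4 to -0.35 kb, of which 2 were shared by the replicates and 1 was a peak of replicate 2 scoring 97.44. None of the 3 carried EWSR1-FLI1, and each touched H2Aub1 in at least 1 replicate. A second group past the end of the gene held the weak EWSR1-FLI1 peak and a RING1B peak of replicate 2 scoring 56.49, which lay 13.1 kb apart and did not overlap. In RefSeq the next protein-coding genes on this side of CDK6 are FAM133B and RBM48, whose hg19 positions were not used here.

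H2Aub1 shared by the replicates was present but weak near the start of CDK6, beside these high RING1B scores. The only region of the mark shared by the replicates (92468770 to 92470220) overlapped the strongest RING1B region and scored 50.51 in replicate 1 and 53.44 in replicate 2, percentiles 1.51 and 9.84. The other H2Aub1 peaks were each seen in 1 replicate. Replicate 1 had 4 of them upstream, between -17.8 and -11.0 kb with scores of 76.63 to 124.73. Their percentiles were 42.5 to 70.2, around the middle of the list. Replicate 2 had 2 of them just inside the gene with 61.34 and 50.51, percentiles 27.6 and 1.57.

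The promoter letters of CDK6 are shown because the strongest RING1B region of the 3 windows lies next to the start of the gene while EWSR1-FLI1 has no peak there. RefSeq (GRCh38.p14) lists 2 starts for CDK6, 2614 bp apart, and each window covers 250 bases before and 50 after a start on the minus strand. These coordinates, chr7:92836524-92836823 and chr7:92833910-92834209, are of GRCh38 and are not comparable with the hg19 positions above. The windows reach 250 bases upstream of a RefSeq start, while the RING1B region begins 350 bp upstream of the hg19 gene. The letters are therefore those of the promoter and are not to be taken as the sequence under the RING1B peak. Capitals mark the ETS core GGAA or its reverse complement TTCC.
CDK6 promoter 1: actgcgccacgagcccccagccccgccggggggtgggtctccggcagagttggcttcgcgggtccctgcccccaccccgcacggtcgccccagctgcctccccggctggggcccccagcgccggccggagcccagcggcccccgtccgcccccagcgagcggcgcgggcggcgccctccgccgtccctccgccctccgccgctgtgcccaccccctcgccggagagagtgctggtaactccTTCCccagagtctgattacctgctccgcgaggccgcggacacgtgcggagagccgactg
CDK6 promoter 2: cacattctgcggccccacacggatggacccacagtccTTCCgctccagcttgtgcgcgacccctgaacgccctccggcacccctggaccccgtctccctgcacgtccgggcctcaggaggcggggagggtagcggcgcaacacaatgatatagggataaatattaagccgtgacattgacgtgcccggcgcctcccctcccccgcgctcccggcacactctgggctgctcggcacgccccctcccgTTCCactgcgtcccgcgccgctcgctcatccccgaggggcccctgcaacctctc
The first window held 1 match and the second 2, each as TTCC, and 95.5% of the 35116 promoter windows in the table hold at least 1 match on either strand. The repeat GGAAGGAA, whose matches also count as GGAA, was on neither strand of these windows and was in 3.67% of all. The first window contained 37 CG dinucleotides and the second 29, more than 88.7% and 75.8% of all promoter windows, whose median is 14. No such letters are given for CCND1 or MYC.

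**Figure D2:**
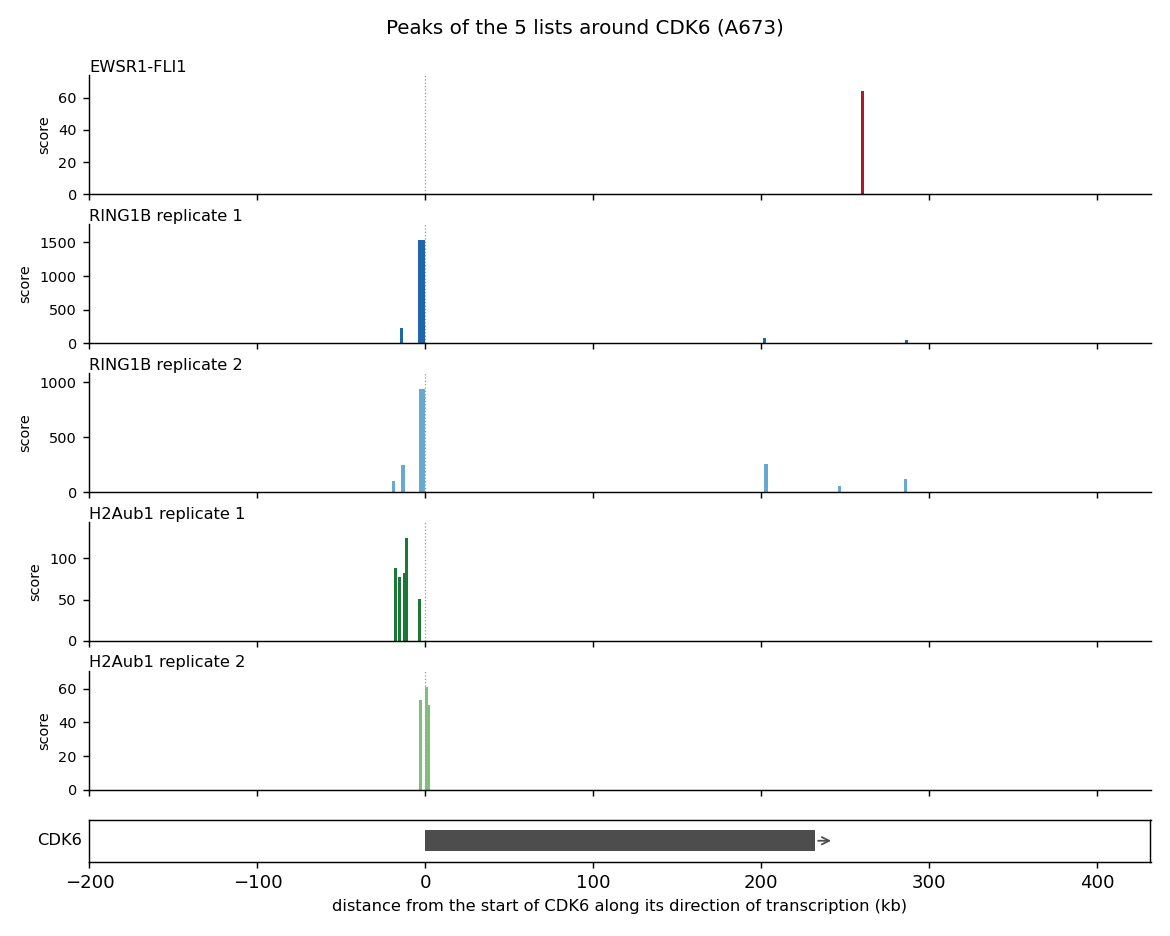
Peaks of each list around CDK6, plotted by distance from the gene's start in kb along its direction of transcription, with bar height giving the authors' score (linear, own scale per list) and the grey bar the gene. Bars are drawn at the peak's width or at a minimum that keeps narrow peaks visible. RING1B is highest just upstream of the start in both replicates, and the lone EWSR1-FLI1 peak stands past the end of the gene at 260 kb.

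MYC had 5 EWSR1-FLI1 peaks over its 2.01 Mb window, all distal to the gene. The highest (chromosome 8 from 127920740 to 127922553) lay at -827 kb and scored 239.26, rank 381 of 2145 and percentile 82.3. On the downstream side 4 peaks lay at 59.8, 75.8, 558 and 789 kb, with scores of 50.31, 92.18, 156.88 and 145.01. The peak nearest to MYC was thus also the weakest, at rank 2135 of 2145.

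Each RING1B region that the replicates shared in the MYC window carried EWSR1-FLI1. At -827 kb RING1B scored 382.53 in replicate 1 (rank 240) and 466.25 in replicate 2 (rank 125). At 558 kb (129305329 to 129307276) it scored 345.52 and 142.76, and at 789 kb (129536549 to 129538166) 210.12 and 63.91. At 76.0 kb (128823466 to 128825146) the scores were 117.96 and 70.04. Replicate 2 placed the regions at 76.0 and 789 kb below the middle of its list, at percentiles 40.8 and 31.3, while replicate 1 placed them at 63.9 and 80.6. The EWSR1-FLI1 peak at 59.8 kb, the weakest, overlapped no RING1B peak.

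Downstream of MYC a cluster of 3 sites spanned 17.6 kb, with its edges at 59.2 and 76.8 kb. It held the EWSR1-FLI1 peak without RING1B, a RING1B peak of replicate 2 scoring 67.27, and the shared site, of which the last pair was separated by 91 bp. A second cluster, at 434 to 442 kb, consisted of 2 RING1B peaks of replicate 2 alone, with scores of 62.23 and 205, the weaker of which shared 369 bp with an H2Aub1 peak of replicate 1 that scored 61.89. The sites at -827, 558 and 789 kb stood alone, with gaps of at least 115 kb to any other EWSR1-FLI1 or RING1B site. Single RING1B peaks were left at 172 kb in replicate 1, scoring 56.52, and at 392 kb in replicate 2, scoring 103.58. In RefSeq the gene that follows MYC downstream is the long non-coding RNA gene PVT1, whose hg19 position was not used here.

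The MYC gene itself carried H2Aub1 in both replicates. The region (128748321 to 128752210, 3890 bp) began 6 bp inside the gene and scored 567 in replicate 1, percentile 96.7, and 361.32 in replicate 2, percentile 96.5. RING1B covered the start of MYC in replicate 2 only, with a score of 103.63 and rank 1272 of 3945, and shared 1283 and 1397 bp with the H2Aub1 peaks of replicates 1 and 2. Neither EWSR1-FLI1 nor RING1B replicate 1 had a peak there.

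The other H2Aub1 region shared at MYC lay downstream at 211 kb (128953719 to 128964153, 10435 bp), with scores of 199.09 and 109.8 and no RING1B. Replicate 1 had 8 further peaks in the window, which scored 56.84 to 179.05, and replicate 2 had 1, which scored 53.2. Of these peaks of a single replicate, that of replicate 1 at 52.9 kb came closest to EWSR1-FLI1, 5.84 kb from the peak at 59.8 kb.

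**Figure D3:**
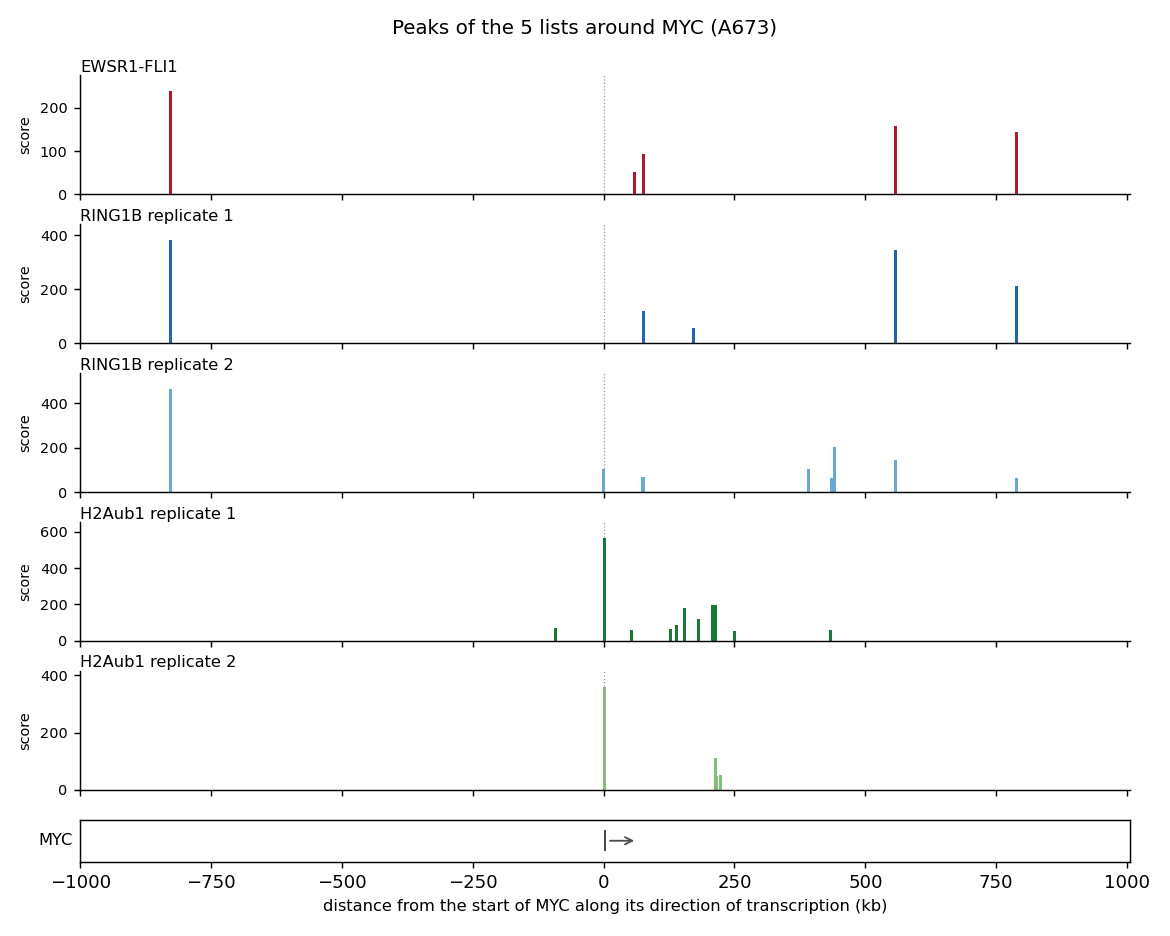
Peaks of each list around MYC, plotted by distance from the gene's start in kb, with bar height giving the authors' score (linear, own scale per list) and the mark at 0 the gene. Bars are drawn at the peak's width or at a minimum that keeps narrow peaks visible. EWSR1-FLI1 with RING1B stands at -827, 75.8, 558 and 789 kb, while H2Aub1 is highest on the gene in both replicates.

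The distance between peak centres was measured where EWSR1-FLI1 and RING1B overlapped. The 6 EWSR1-FLI1 peaks formed 11 pairs with RING1B peaks of the replicates, and the centres of a pair lay 3 to 616 bp apart, with a median of 56 bp. The pairs were chosen by overlap, which by itself keeps their centres close. The widest distance was at CCND1 at -18.7 kb with RING1B replicate 2, where the RING1B peak of 2587 bp contained the whole EWSR1-FLI1 peak of 940 bp and reached farther upstream.

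Many peaks of these windows were seen in 1 replicate only, as over the whole lists. Of the 11 RING1B peaks of replicate 1, 9 (81.8%) were found in replicate 2, against 62.6% of its list, and of the 21 of replicate 2, 9 (42.9%) were found in replicate 1, against 40.9%. For H2Aub1 these counts were 7 of 28 in replicate 1 (25.0%, against 26.6%) and 10 of 14 in replicate 2 (71.4%, against 77.3%). Over the 3 windows together, recovered peaks had higher median scores, at 227 for those found again and 56.8 for the rest in RING1B replicate 1, and 242 and 72.4 in RING1B replicate 2. In H2Aub1 the medians were 567 and 71.8 in replicate 1, and 114 and 57.3 in replicate 2. This did not hold for H2Aub1 at CDK6, where the 1 recovered peak scored 50.51 and the others had a median of 84.9 in replicate 1, and the values were 53.44 and 55.9 in replicate 2. For RING1B replicate 2 at MYC the medians were close, at 106 for recovered peaks and 104 for the rest.

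**Figure D4:**
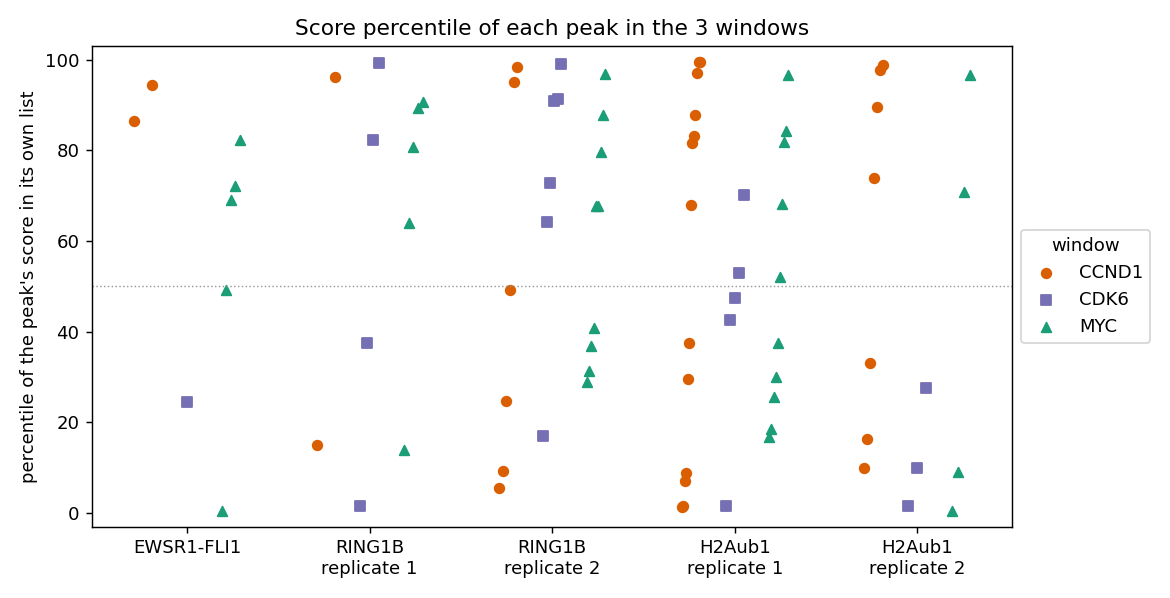
Percentile of each peak's score within its own list (vertical axis, percent), for each list and window; every point is 1 peak, and the dotted line marks the middle of the list. Both CCND1 peaks of EWSR1-FLI1 stand above 86, the CDK6 peak at 24.4, and the RING1B peak at the start of CDK6 above 99 in both replicates.

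Peaks were denser in these windows than over the genome for EWSR1-FLI1 and RING1B, whereas for H2Aub1 this held in both replicates at CCND1 alone. EWSR1-FLI1 peaks numbered 4.84, 1.58 and 2.49 per Mb in the CCND1, CDK6 and MYC windows, against 0.706 per Mb overall. RING1B replicate 1 had 4.84, 6.33 and 2.49 per Mb against 0.847, and replicate 2 had 14.5, 9.50 and 4.49 against 1.30. H2Aub1 replicate 1 had 31.4, 7.92 and 4.99 per Mb against 8.70, and replicate 2 had 16.9, 4.75 and 1.99 against 3.38. The MYC window thus lay below the genome in both H2Aub1 replicates, and the CDK6 window below it in replicate 1 and above it in replicate 2.

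Windows of the same width placed end to end along chromosomes 1 to 22 and X give the scale for these counts. For EWSR1-FLI1, at least as many peaks were found in 5.92% of windows of the CCND1 width, 28.4% of the CDK6 width and 6.85% of the MYC width. For RING1B these shares were 7.75%, 2.46% and 10.0% in replicate 1 and 0.382%, 1.11% and 3.46% in replicate 2. For H2Aub1 they were 8.13%, 28.1% and 40.4% in replicate 1 and 5.44%, 21.1% and 41.5% in replicate 2. The single EWSR1-FLI1 peak of CDK6 was thus a common count, while the RING1B counts of CCND1 in replicate 2 and of CDK6 were matched by few windows. Of the 6 RING1B peaks of replicate 2 at CCND1, 1 was found in replicate 1 (16.7%, against 40.9% of the list). The median score of these 6 was 68.9, against 78.2 for the list. Assembly gaps were counted in the length, and gene-rich and gene-poor windows were not separated.

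**Figure D5:**
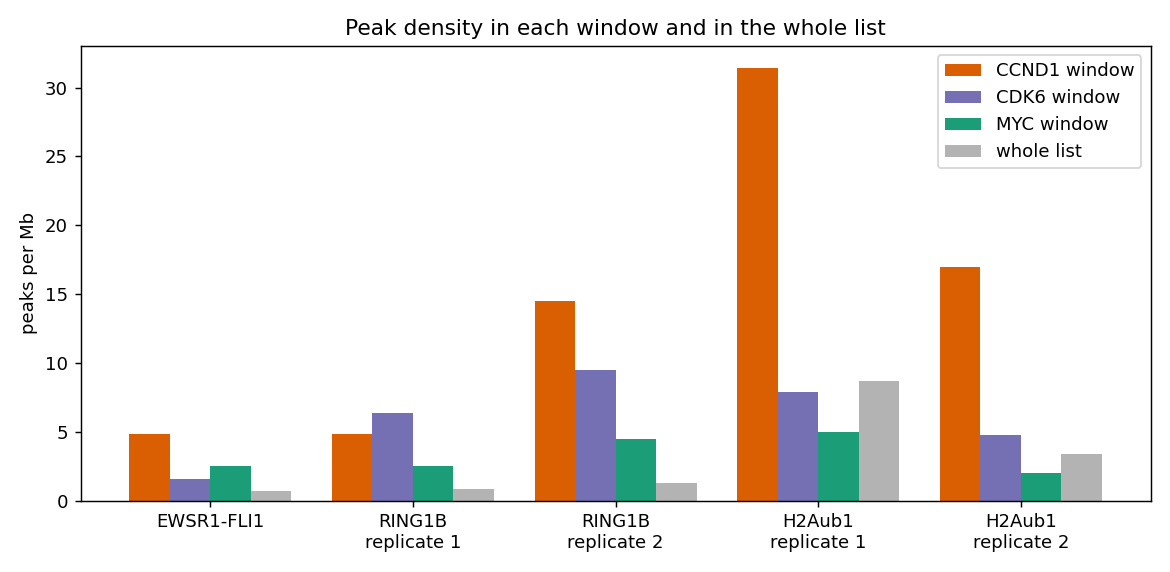
Peaks per Mb (vertical axis) of each list in the windows of CCND1, CDK6 and MYC and over the whole list on chromosomes 1 to 22 and X. EWSR1-FLI1 and RING1B bars of all windows exceed the grey bar of the whole list, and for H2Aub1 the MYC bars lie below it.

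The nearest EWSR1-FLI1 peaks outside the windows were located on both sides of each gene. Beyond the CCND1 window they lay at -376 kb, with a score of 328.67, and at 4724 kb, with a score of 61.83. Beyond the CDK6 window they lay at 970 kb, past the end of the gene, with a score of 651.35, and at -3061 kb with 145.1. The peak at 970 kb overlapped RING1B peaks scoring 1051.13 in replicate 1 and 1060.89 in replicate 2. Beyond the MYC window they lay at -1168 kb, with a score of 73.77, and at 1383 kb, with a score of 62.33. Within the windows, the EWSR1-FLI1 peaks closest to a limit were those at -41.4 kb from CCND1, 260 kb from CDK6 and -827 kb from MYC, with scores of 295.06, 64.34 and 239.26, and each lay well away from that limit.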

How the data were processed

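ChIP-seq peak lists of 5 samples were used, 1 list per sample, with hg19 coordinates written 1-based. Bowtie and hg19 are named in the submitters' processing notes, which add mm9 for the RING1B and H2Aub1 samples. The peaks are named after MACS, per the file contents, and versions and filters are not given in the sources used here. Each peak has a score of the authors, deposited with no stated scale, and the lowest score of each list is about 50.

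Peaks touching each window by at least 1 bp were taken with Python 3.11.15 and pandas 2.3.3. A region shared by replicates is a run of overlapping peaks that holds a peak of each. Sites are merged EWSR1-FLI1 and RING1B peaks. Chromosome lengths came from GenomeInfoDb 1.38.1, and the overlap and merging steps were tested on simulated data. Gene strands are textbook knowledge, checked for CDK6 against RefSeq. Peaks described one by one are the 3 EWSR1-FLI1 peaks of highest score per gene, those nearest to or on the gene, and the RING1B and H2Aub1 regions of highest score, plus others for completeness. Genes and windows were chosen with earlier results of these data known. RefSeq positions are on GRCh38, so neighbouring genes are given by order only, and other cell cycle genes and loci of like pattern were not placed. Shares carry Wilson 95% intervals. The limit for a count of 0 is 3 counts of the total, which is rough at small totals, so the Wilson limit is also given for RING1B regions at CDK6.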

Additional observations from a re-analysis of the deposited data

How the results depend on the processing

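EWSR1-FLI1 peaks with RING1B, 5 of 8 as reported, numbered 3 of 5 with the 50% of each list that scored highest, 2 of 5 with 200 kb on each side of all genes, and 10 of 14 with 1 Mb. Leaving out a RING1B replicate gave 5 to 6 of 8. At 1 Mb CDK6 had 3 such peaks out of 4, so its lack of EWSR1-FLI1 with RING1B holds for the window of 200 kb. With centres within 500 bp CCND1 had 0 such peaks in place of 1. EWSR1-FLI1 peaks with H2Aub1 numbered 0 under each overlap, score and replicate alternative run, and 1 when either replicate within 10 kb counted, an alternative chosen after seeing the data. The 9 shared RING1B regions became 23 for the union and 17 with 1 Mb, and a single replicate gave 11 or 21.

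Clusters depended on RING1B replicate 2. Their number, 5, fell to 2 without it and was 5 without replicate 1, was 2 when RING1B had to be shared, and 1 with EWSR1-FLI1 alone. The CCND1 cluster was lost in each of these except without replicate 1. With 1 Mb, the share of windows with at least as many EWSR1-FLI1 peaks was 6.82% for CCND1 and 14.5% for CDK6, both for other widths and counts. A paired reading by replicate number (replicate block) gave H2Aub1 at 3 of 11 RING1B peaks in replicate 1 and 2 of 21 in replicate 2. This compares with 1 of 9 shared regions, and the same paired shares over the whole lists are not given here. Depth is unknown, so a peak missing from a list cannot be told from one below its threshold.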
